A study of Arabidopsis thaliana with 16 samples.

Results

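Leaves of 2 lines of Arabidopsis thaliana, as named by their count files, were compared across all genes. Each line expresses the EXS domain of the phosphate exporter PHO1 in the pho1-4 mutant. The comparison rests on 4 of the 16 libraries of the study: the 2 leaf libraries whose count files carry the name EXS34 and the 2 leaf libraries whose count files carry the name EXS32. Per the labels lines EXS34 and EXS32 are both pho1-4 plants with an EXS-GFP transgene. The sample titles assign these libraries otherwise, as described below. The plants were 25 days old, grown on Oil-Dri pellets with Hoagland nutrients and not treated. EXS34 and EXS32 are 1 line each, so any difference is between 2 single lines. The promoter of the transgene was not stated in the labels. Nothing in the labels ties the 2 libraries of a group to different plants, and the spread behind each p-value may therefore be technical.

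The names of the leaf libraries conflict. The sample titles call the EXS34-file libraries leaves of EXS32, and call the EXS32-file libraries leaves of Compl, which is pho1-4 complemented with the PHO1 gene. The 2 other leaf groups have compl and pho14 in their file names and are titled KO (pho1-4) and EXS34. Groups are named here by the file names; by the titles the same numbers compare line EXS32 with the complemented mutant. Root libraries have no such conflict of genotype. Replicate numbers also conflict, and those of the titles are used here: replicates 1 and 2 of the EXS34-file leaves carry the numbers 2 and 3 in their file names, as do the pho14-file leaves, EXS34 roots and KO roots, while the numbers match in the other groups. PHO1 itself does not separate the names: its level was 72.3 and 87.4 CPM (counts per 1000000 reads, scaled between libraries) in EXS34-file leaves, 76.0 and 110.4 CPM in EXS32-file leaves, 60.6 and 63.5 CPM in compl-file leaves and 61.9 and 45.9 CPM in pho14-file leaves.

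SEC3B, which encodes a subunit of the exocyst, differs between genotypes in roots and was singled out after its values had been seen. It lay at 24.7 and 20.09 CPM in EXS34 roots and 20.6 and 24.1 CPM in EXS32 roots, and at 5.59 to 7.68 CPM in the 4 KO and Compl roots. In leaves it lay at 5.35 and 5.72 CPM in EXS34-file libraries and 5.34 and 5.34 CPM in EXS32-file libraries, and at 0.891 to 1.82 CPM in the 4 others. So the 2 leaf groups compared here were the high ones, as both EXS lines were in roots. SEC3B has a close neighbouring copy, SEC3A, and reads may be split between them.

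PHO1 moves phosphate out of cells of the root vasculature into the xylem, from where it reaches the leaf. Its EXS domain is part of the membrane end of the protein. Plants that lack PHO1 have little phosphate in their leaves and turn on the phosphate starvation response, which is driven by the transcription factor PHR1 and its relatives and includes lipid remodelling, phosphatases and the miR399 pathway. Leaves short of phosphate are also known to accumulate anthocyanin and starch.

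Of 18548 genes tested, 2754 (14.8%) differed between EXS34-file and EXS32-file leaves at an adjusted p under 0.05, which is what "called" means below. Of these, 1546 were higher (8.34%) and 1208 lower (6.51%) in EXS34-file leaves. When the same fit was run on simulated counts with 200 genes changed, the share of false calls lay above 0.05 in all 6 runs. The share of false calls here may therefore also lie above 0.05. The median size of a called difference was 0.68 on the log2 scale, and 474 genes were higher and 213 lower by at least 1. Many transcripts of glucosinolate and anthocyanin synthesis and of sulfate reduction were higher in EXS34-file leaves. Many that mark darkness and carbon shortage, and many of light-harvesting proteins, were lower there. The count was 1525 without EXS34-file replicate 1, 1794 without EXS34-file replicate 2, 986 without EXS32-file replicate 1 and 1171 without EXS32-file replicate 2. With the replicate number as a block it was 3494 by the title numbers and 2317 by the file numbers, and 1785 of the 2317 were among the 2754.

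Along PC1 of all 8 leaf libraries (33.8% of the variance) the EXS34-file libraries were at -5.2 and 12.6, the EXS32-file libraries at 40.5 and 56.1, and the 4 others between -31.4 and -11.7. Along PC2 (22.5%) the EXS34-file libraries were at -31.3 and -29.6, the EXS32-file libraries at 15 and 6.1, the compl-file libraries at -11.8 and -17.6 and the pho14-file libraries at 47.6 and 21.8. The EXS32-file libraries thus lay at one end of PC1, and the pho14-file and EXS34-file libraries at the ends of PC2. Both EXS34-file libraries lay outside the range of the other 6 leaf libraries in 943 called genes (34.2%, against 13.6% of all genes tested). Both EXS32-file libraries did so in 2162 called genes (78.5%, against 30.8% of all). Being called favours genes in which the 2 groups lie apart, and lying outside the other 6 libraries requires it. The higher shares among called genes than among all genes were thus partly set by the selection. Reads assigned to genes numbered 10344995 and 11213550 in EXS34-file leaves and 11501541 and 9465995 in EXS32-file leaves.

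**Figure D1:**
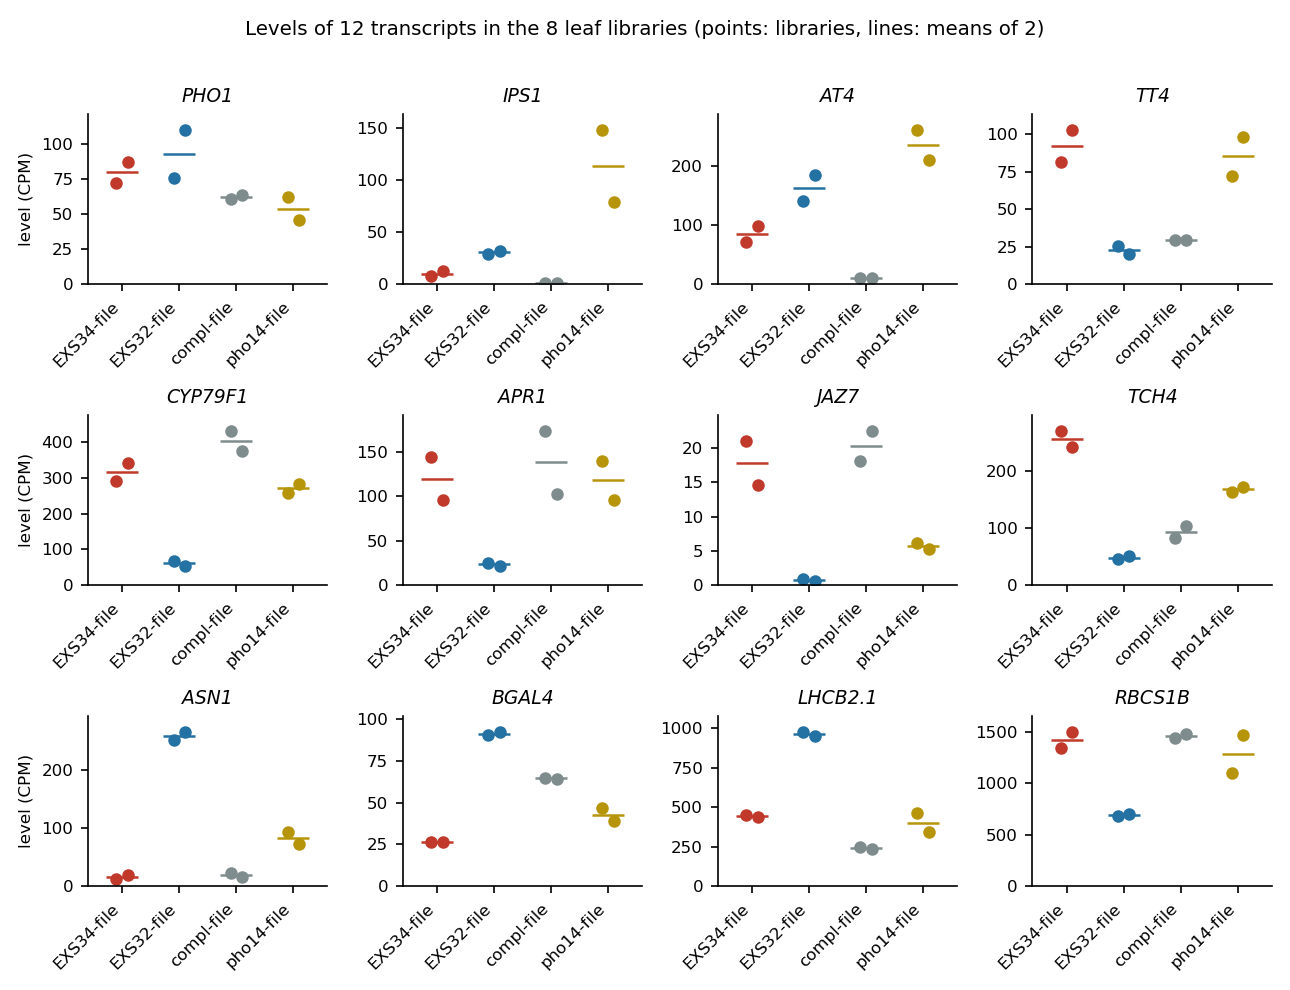
Levels of 12 transcripts in the 8 leaf libraries, in CPM on linear axes from 0. Points are single libraries, lines are means of 2, and the groups run from EXS34-file and EXS32-file to compl-file and pho14-file. For CYP79F1, APR1, JAZ7, ASN1 and LHCB2.1 the EXS32-file points lie apart from all 6 others, and for PHO1 the EXS34-file and EXS32-file points overlap.

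PHO1 (AT3G23430, chr3:8387398-8393467 in TAIR10.1) was not called (-0.22 ± 0.20, adjusted p 0.514), and the levels given above overlap between the 2 groups. The estimate turned to 0.072 (adjusted p 0.857) without EXS32-file replicate 2. Reads on PHO1 can come from the mutant locus and from a transgene, which these counts do not tell apart. None of the 8 tested PHO1 homologues was called by edgeR, with 2 at an unadjusted p under 0.05. PHO1;H1, the homologue known to respond to phosphate shortage, had 21.7 and 30.4 CPM in EXS34-file leaves and 18.3 and 16.7 CPM in EXS32-file leaves (0.57 ± 0.21, adjusted p 0.107).

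Of the 22 tested genes of the phosphate starvation response 2 were called, both lower, against 6.51% lower over all genes. The median of the list was 0.17, against -0.01 over all genes. The 2 are IPS1 and AT4, RNAs that bind miR399 without being cut and so keep it from the mRNA of PHO2, whose product marks PHO1 protein for removal. Their binding sites are shown because they are what the 2 RNAs share. In miR399b (chr1:23345387-23345407, minus strand, TAIR10.1) the capitals mark the seed, bases 2 to 8. In the sites (chr3:3051224-3051247 for IPS1 and chr5:895149-895172 for AT4, both plus strand, TAIR10.1) the capitals mark the 18 bases that pair with miR399b, on both sides of a centre that holds a 3-base bulge.
miR399b: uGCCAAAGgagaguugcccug
IPS1 site: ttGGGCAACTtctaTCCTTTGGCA
AT4 site: ttGGGCAACTtcgaTCCTTTGGCA
The search kept only sites that pair with the whole seed, so that pairing was set in advance. The 2 sites differ from each other only in the centre.

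IPS1 had 7.87 and 12.1 CPM in EXS34-file leaves and 29.0 and 31.9 CPM in EXS32-file leaves (-1.60 ± 0.37, adjusted p 0.0392). AT4 had 71.3 and 98.5 CPM in EXS34-file leaves and 139 and 184 CPM in EXS32-file leaves (-0.93 ± 0.19, adjusted p 0.0182). In both RNAs the 2 groups are apart, and both groups lay between the compl-file leaves (0.909 and 0.719 CPM of IPS1, 9.35 and 10.1 CPM of AT4) and the pho14-file leaves (148 and 78.5 CPM of IPS1, 261 and 209.9 CPM of AT4). The IPS1 call ended without EXS34-file replicate 1 (adjusted p 0.163), EXS34-file replicate 2 (0.0754), EXS32-file replicate 1 (0.121) or EXS32-file replicate 2 (0.135), and with no filter on low counts (0.0741), all 16 libraries in 1 fit (0.107), a block for the title numbers (0.0736) or a block for the file numbers (0.255). The AT4 call ended without EXS34-file replicate 1 (adjusted p 0.0780) or EXS32-file replicate 2 (0.0909).

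The 20 other members went in both directions and did not pass the test. SQD1, which makes the sulfolipid that replaces phospholipid, had 230.4 and 284 CPM in EXS34-file leaves and 182 and 172 CPM in EXS32-file leaves (0.54 ± 0.17, adjusted p 0.0650). PAP17, an acid phosphatase, had 36.5 and 57.4 CPM in EXS34-file leaves and 27.7 and 23.1 CPM in EXS32-file leaves (0.88 ± 0.27, adjusted p 0.0824). SPX1, which binds and holds back PHR1 when phosphate is plentiful, had 18.1 and 34.0 CPM in EXS34-file leaves and 29.4 and 23.5 CPM in EXS32-file leaves, which overlap (-0.02 ± 0.45, adjusted p 0.978). Its level was 317 and 159 CPM in pho14-file leaves.

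The 250 bases before the annotated start of AT4 (chr5:894332-894581, plus strand, TAIR10.1) are shown because they hold the letters GNATATNC, the P1BS motif known as the binding site of PHR1. The capitals mark the match, which starts 26 bases before the gene.
AT4 promoter: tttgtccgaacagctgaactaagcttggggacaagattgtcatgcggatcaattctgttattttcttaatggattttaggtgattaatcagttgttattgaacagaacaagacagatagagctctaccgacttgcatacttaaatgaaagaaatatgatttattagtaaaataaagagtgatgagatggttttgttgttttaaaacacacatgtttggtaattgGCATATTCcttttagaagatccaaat
The motif was searched on both strands. It was in the same window of 8 of the 22 genes of the phosphate starvation list (36.4%), against 5.4% of all 27997 promoters, and IPS1 had no match in its window.

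Of 15 tested genes of phosphate transport and signalling, 2 were higher and 2 lower, against 8.34% and 6.51% of all genes. PHT2;1, the phosphate carrier of the chloroplast envelope, had 159 and 163 CPM in EXS34-file leaves and 84.2 and 83.6 CPM in EXS32-file leaves (0.94 ± 0.09, adjusted p 0.000319). The compl-file leaves held 169 and 162 CPM, near the EXS34-file level. The locus AT4G22990 had 52.0 and 48.6 CPM in EXS34-file leaves and 22.7 and 30.0 CPM in EXS32-file leaves (0.94 ± 0.20, adjusted p 0.0191). NLA, a ubiquitin ligase that removes phosphate importers, had 11.8 and 10.1 CPM in EXS34-file leaves and 16.3 and 20.3 CPM in EXS32-file leaves (-0.74 ± 0.17, adjusted p 0.0199). PHR1 had 43.1 and 43.2 CPM in EXS34-file leaves and 53.5 and 60.3 CPM in EXS32-file leaves (-0.40 ± 0.09, adjusted p 0.0211). PHO2 was not called and had 93.7 and 111 CPM in EXS34-file leaves and 74.1 and 77.7 CPM in EXS32-file leaves (0.43 ± 0.17, adjusted p 0.126). The AT4G22990 call ended without EXS34-file replicate 1 (adjusted p 0.0839), EXS34-file replicate 2 (0.0659) or EXS32-file replicate 1 (0.128), and with a block for the file numbers (0.0532). The NLA call ended without EXS34-file replicate 1 (adjusted p 0.05003), EXS34-file replicate 2 (0.102) or EXS32-file replicate 2 (0.146), and with the DESeq2 Wald test (0.0700). The PHR1 call ended without EXS34-file replicate 1 (adjusted p 0.0854), EXS34-file replicate 2 (0.0734) or EXS32-file replicate 2 (0.147), and with the DESeq2 Wald test (0.0918). The higher members numbered 4 with the 4 libraries alone and 1 with a block for the file numbers.

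**Figure D2:**
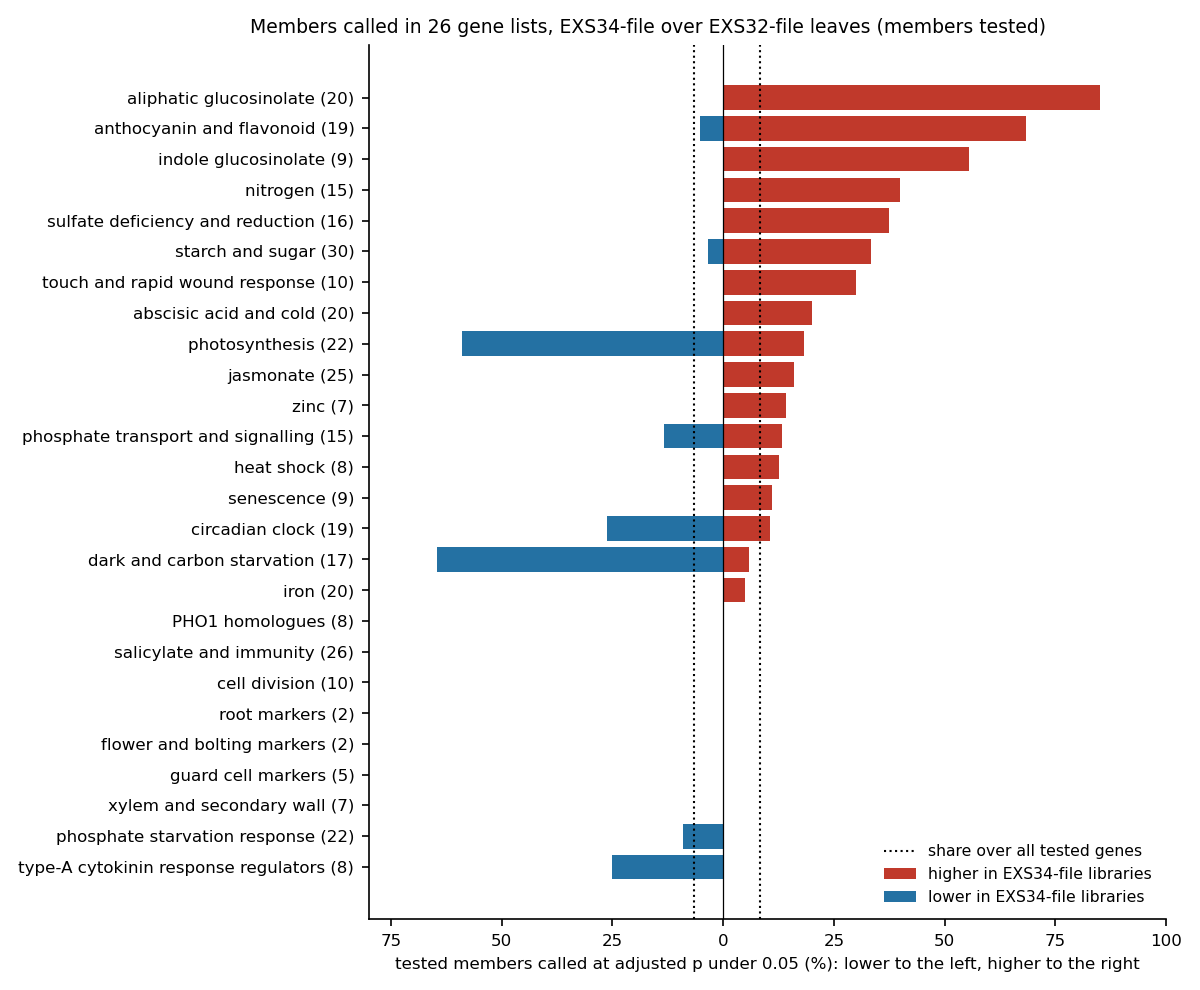
Share of the tested members of each of 26 gene lists that was called higher (right) or lower (left) in EXS34-file leaves than in EXS32-file leaves, in percent, with the number tested in parentheses. Dotted lines mark the shares over all tested genes, 8.34% higher and 6.51% lower. Aliphatic glucosinolate and anthocyanin genes extend furthest to the right, and dark and carbon starvation genes and photosynthesis genes furthest to the left.

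Glucosinolates are the sulfur-rich defence compounds of the cabbage family. The aliphatic ones are built from methionine and the indole ones from tryptophan. Of 20 tested genes of aliphatic glucosinolate synthesis, 17 were higher in EXS34-file leaves and none was lower, against 8.34% and 6.51% of all genes. All 20 estimates were positive, and the median was 1.49. BCAT4, the first step of methionine chain elongation, had 229 and 280.0 CPM in EXS34-file leaves and 99.6 and 86.6 CPM in EXS32-file leaves (1.45 ± 0.12, adjusted p 0.000126). IPMI1, an isomerase subunit of the same elongation cycle, had 69.7 and 67.1 CPM in EXS34-file leaves and 18.0 and 12.3 CPM in EXS32-file leaves (2.16 ± 0.19, adjusted p 0.000325). BAT5, a carrier of elongation intermediates across the chloroplast envelope, had 63.9 and 64.96 CPM in EXS34-file leaves and 19.9 and 17.2 CPM in EXS32-file leaves (1.79 ± 0.12, adjusted p 4.72e-05). In these 3 genes the groups lay further apart than the 2 libraries of either group. BCAT4 and IPMI1 were named after their values were seen.

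CYP79F1, the P450 enzyme that commits elongated methionine to the pathway, had 292 and 342 CPM in EXS34-file leaves and 68.7 and 53.7 CPM in EXS32-file leaves (2.37 ± 0.14, adjusted p 4.18e-05). Its neighbouring copy CYP79F2 had 5.05 and 6.08 CPM in EXS34-file leaves and 1.14 and 0.962 CPM in EXS32-file leaves (2.39 ± 0.25, adjusted p 0.000455), and reads may be split between the 2 copies. SOT17, a sulfotransferase of the last core step, had 31.4 and 34.4 CPM in EXS34-file leaves and 11.6 and 8.34 CPM in EXS32-file leaves (1.71 ± 0.16, adjusted p 0.000292). FMO GS-OX3 (FMOGS-OX3), which oxidises the side chain, had 80.2 and 79.3 CPM in EXS34-file leaves and 13.9 and 12.5 CPM in EXS32-file leaves (2.59 ± 0.13, adjusted p 2.10e-05). Its EXS34-file values lay with those of the compl-file leaves (80.9 and 73.5 CPM), and the EXS32-file values were the lowest of the 4 groups.

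Of the MYB factors that switch the aliphatic pathway on, MYB29 had 28.8 and 31.0 CPM in EXS34-file leaves and 6.82 and 10.9 CPM in EXS32-file leaves (1.77 ± 0.24, adjusted p 0.00272). MYB28 missed the threshold and had 59.8 and 88.6 CPM in EXS34-file leaves and 44.97 and 49.3 CPM in EXS32-file leaves (0.66 ± 0.20, adjusted p 0.0669). Leaving out any 1 library gave 17 to 19 members higher.

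Of 9 tested genes of indole glucosinolate synthesis, 5 were higher and none lower, against 8.34% and 6.51% of all genes. The median was 1.02. CYP79B2, which opens the tryptophan branch, had 90.6 and 65.2 CPM in EXS34-file leaves and 27.6 and 21.1 CPM in EXS32-file leaves (1.67 ± 0.21, adjusted p 0.00225). UGT74B1, a glucosyltransferase, had 103 and 79.1 CPM in EXS34-file leaves and 41.2 and 36.4 CPM in EXS32-file leaves (1.22 ± 0.15, adjusted p 0.000907). The regulators MYB51 and MYB34 were not called, and for MYB34 the groups overlapped (18.9 and 10.5 CPM in EXS34-file leaves and 11.98 and 17.3 CPM in EXS32-file leaves). The number higher was 4 and 5 without EXS34-file replicates 1 and 2, and 3 and 2 without EXS32-file replicates 1 and 2, and 2 with the 4 libraries alone.

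Sulfate is activated and reduced by APS and APR enzymes before it enters cysteine, and LSU and SDI genes are known to rise under sulfur shortage. Of 16 tested genes of this list 6 were higher and none lower, against 8.34% and 6.51% of all genes. All 16 estimates were positive, and the median was 1.39. APS3, an ATP sulfurylase, had 67.3 and 61.6 CPM in EXS34-file leaves and 28.3 and 26.4 CPM in EXS32-file leaves (1.23 ± 0.13, adjusted p 0.000406). APR1, an APS reductase, had 143 and 95.3 CPM in EXS34-file leaves and 24.6 and 22.02 CPM in EXS32-file leaves (2.35 ± 0.37, adjusted p 0.0137). APR2, another, had 125 and 98.0 CPM in EXS34-file leaves and 36.0 and 40.5 CPM in EXS32-file leaves (1.54 ± 0.22, adjusted p 0.00485). LSU2 had 17.1 and 15.3 CPM in EXS34-file leaves and 1.66 and 1.39 CPM in EXS32-file leaves (3.39 ± 0.48, adjusted p 0.00529), so the EXS32-file leaves held little of this transcript. LSU3, which is not on the list, had 33 and 16 reads in EXS34-file leaves and 0 and 1 reads in EXS32-file leaves (adjusted p 0.0328).

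The sulfate genes also differed between the 2 libraries of other groups. SDI1, known to hold back glucosinolate synthesis under sulfur shortage, had 8.65 and 8.94 CPM in EXS34-file leaves and 1.14 and 1.28 CPM in EXS32-file leaves and was not called (2.86 ± 0.85, adjusted p 0.0837), while the compl-file leaves held 15.1 and 3.95 CPM. The number of members higher was 4 and 6 without EXS34-file replicates 1 and 2, and 1 and 4 without EXS32-file replicates 1 and 2. The APR1 call ended without EXS34-file replicate 1 (adjusted p 0.05002), EXS32-file replicate 1 (0.0790) or EXS32-file replicate 2 (0.0796). The APR2 call ended without EXS32-file replicate 1 (adjusted p 0.05002). The LSU2 call ended without EXS32-file replicate 1 (adjusted p 0.0540). The LSU3 call ended without EXS34-file replicate 1 (adjusted p 0.125), EXS32-file replicate 1 (0.191) or EXS32-file replicate 2 (0.118), and with limma-voom (0.0710). The number was 10 with the DESeq2 Wald test, 10 with all 16 libraries in 1 fit, 12 with a block for the title numbers and 11 with a block for the file numbers.

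**Figure D3:**
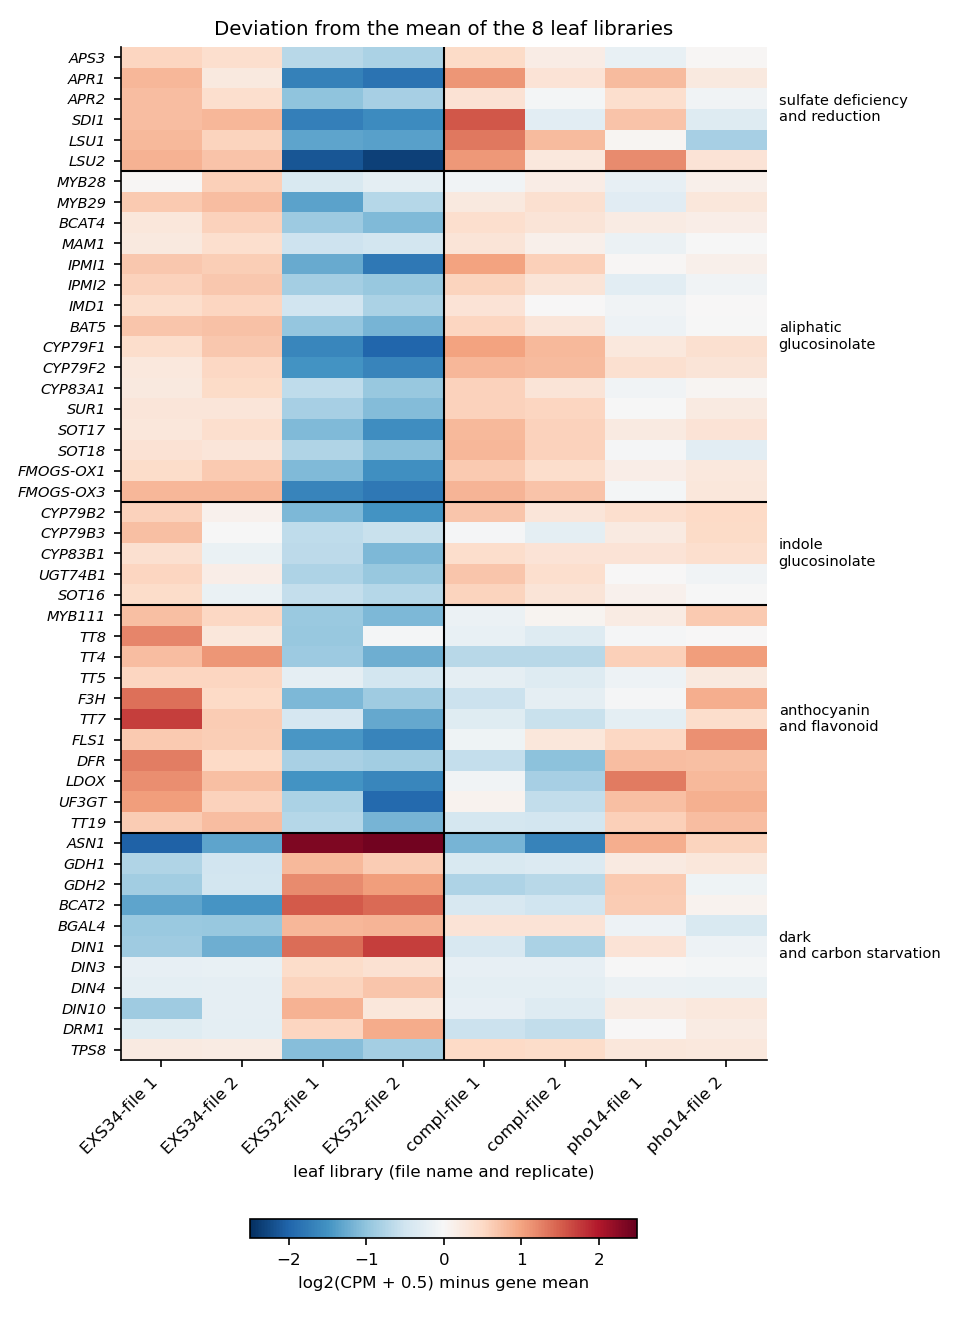
Deviation of log2(CPM + 0.5) from the mean of the 8 leaf libraries for 49 transcripts of 5 lists, red above and blue below the mean, with the EXS34-file and EXS32-file libraries left of the vertical line. The rows are a selection from each list and leave out members such as TTG1, C4H and MYB34. Among the rows shown, the EXS32-file columns are blue for the sulfate and glucosinolate genes and red for most dark and carbon starvation genes. For the anthocyanin genes shown the EXS34-file columns are mostly red and the EXS32-file columns mostly blue.

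Anthocyanins and flavonols are made from phenylalanine through chalcone, and the MYB factor PAP1 switches on the anthocyanin branch. Of 19 tested genes 13 were higher in EXS34-file leaves and 1 was lower, against 8.34% and 6.51% of all genes. The median was 1.93. PAP1 had 25 and 19 reads in EXS34-file leaves and 1 and 0 reads in EXS32-file leaves (adjusted p 0.00231). TT4, chalcone synthase, had 81.7 and 103 CPM in EXS34-file leaves and 25.2 and 20.2 CPM in EXS32-file leaves (2.02 ± 0.18, adjusted p 0.000385). FLS1, flavonol synthase, had 16.6 and 16.3 CPM in EXS34-file leaves and 3.499 and 2.99 CPM in EXS32-file leaves (2.33 ± 0.27, adjusted p 0.000788). DFR, the first enzyme past the flavonol branch, had 39.4 and 22.7 CPM in EXS34-file leaves and 8.84 and 8.44 CPM in EXS32-file leaves (1.84 ± 0.27, adjusted p 0.00423). LDOX, the next oxidase, had 23.7 and 17.7 CPM in EXS34-file leaves and 3.32 and 2.99 CPM in EXS32-file leaves (2.70 ± 0.32, adjusted p 0.00156). The 2 groups did not overlap in any of these 5 genes. Over all genes tested, 28.8% did not overlap with EXS34-file leaves higher, and 30.4% with them lower. PAP1 was named by a rule that required no overlap, and DFR was named after its values were seen.

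TT19 (GSTF12), a glutathione transferase needed for anthocyanin to reach the vacuole, had 15.1 and 16.6 CPM in EXS34-file leaves and 5.599 and 3.95 CPM in EXS32-file leaves (1.71 ± 0.18, adjusted p 0.000510). MYB111, which drives flavonol genes, had 6.41 and 5.36 CPM in EXS34-file leaves and 1.66 and 1.39 CPM in EXS32-file leaves (1.93 ± 0.29, adjusted p 0.00256). The bHLH partner TT8 was not called and had 4.08 and 1.88 CPM in EXS34-file leaves and 0.525 and 1.39 CPM in EXS32-file leaves (1.66 ± 0.52, adjusted p 0.0603). The 1 lower gene was TTG1, the WD-repeat partner of these factors, with 33.9 and 29.6 CPM in EXS34-file leaves and 46.9 and 41.5 CPM in EXS32-file leaves (-0.48 ± 0.13, adjusted p 0.0422). C4H, which also feeds lignin synthesis, had 99.8 and 93.7 CPM in EXS34-file leaves and 100.1 and 82.4 CPM in EXS32-file leaves (0.08 ± 0.14, adjusted p 0.723), with overlap. For TT4 the pho14-file leaves (72.2 and 98.3 CPM) lay with the EXS34-file leaves and the compl-file leaves (29.1 and 29.3 CPM) nearer the EXS32-file leaves. The TTG1 call ended without EXS34-file replicate 1 (adjusted p 0.0821), EXS34-file replicate 2 (0.183), EXS32-file replicate 1 (0.237) or EXS32-file replicate 2 (0.0910), and with the DESeq2 Wald test (0.0807), limma-voom (0.0542), a fit without robust (0.0502) or a block for the file numbers (0.151). The DFR call ended with all 16 libraries in 1 fit (adjusted p 0.0649). The TT19 call ended with all 16 libraries in 1 fit (adjusted p 0.0725). The number higher was 10 to 14 when any 1 library was left out.

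Leaves short of sugar or kept in darkness are known to raise genes that break down amino acids and cell-wall sugars. Of 17 tested genes of this kind 11 were lower in EXS34-file leaves and 1 was higher, against 6.51% and 8.34% of all genes. The median was -1.01. ASN1, an asparagine synthetase that sugar represses, had 11.9 and 19.6 CPM in EXS34-file leaves and 252 and 265 CPM in EXS32-file leaves and fell by 4.04 ± 0.27 on the log2 scale (adjusted p 0.000325). Its compl-file level (21.96 and 15.3 CPM) was near the EXS34-file level, and the pho14-file leaves (93.4 and 73.2 CPM) were in between. BCAT2 (BCAT-2), an aminotransferase of branched-chain amino acids, had 2.04 and 1.79 CPM in EXS34-file leaves and 17.7 and 16.5 CPM in EXS32-file leaves (-3.15 ± 0.24, adjusted p 0.000106). DIN1 (SEN1), a dark-induced gene, had 34.6 and 27.4 CPM in EXS34-file leaves and 171 and 216 CPM in EXS32-file leaves (-2.64 ± 0.22, adjusted p 0.000538). BGAL4, a beta-galactosidase, had 26.4 and 26.2 CPM in EXS34-file leaves and 90.11 and 92.2 CPM in EXS32-file leaves (-1.79 ± 0.10, adjusted p 3.24e-05).

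GDH1, a glutamate dehydrogenase, had 63.3 and 77.3 CPM in EXS34-file leaves and 189 and 167 CPM in EXS32-file leaves (-1.34 ± 0.11, adjusted p 0.000155). GDH2, another, had 57.4 and 76.5 CPM in EXS34-file leaves and 240.0 and 219 CPM in EXS32-file leaves (-1.78 ± 0.26, adjusted p 0.00720). DRM1 (DYL1), a dormancy marker, had 205 and 212 CPM in EXS34-file leaves and 365 and 476 CPM in EXS32-file leaves (-1.01 ± 0.12, adjusted p 0.000991). The EXS32-file libraries were the high ones in all of these lower genes. The 1 higher gene was TPS8, of the trehalose phosphate synthase family, with 251 and 248 CPM in EXS34-file leaves and 102 and 119 CPM in EXS32-file leaves (1.17 ± 0.09, adjusted p 0.000111). The GDH2 call ended without EXS34-file replicate 1 (adjusted p 0.0523), and with a block for the file numbers (0.124). The number lower was 9 to 11 when any 1 library was left out.

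The 250 bases before the annotated starts of ASN1, TT4 and JAZ7 (a jasmonate gene described below) are shown because all 3 hold CACGTG, the G-box that bHLH and bZIP factors are known to bind, although ASN1 was lower and the others higher. Their coordinates in TAIR10.1 are chr3:17441432-17441681 (minus strand) for ASN1, chr5:4488226-4488475 (plus strand) for TT4 and chr2:14572780-14573029 (plus strand) for JAZ7. The capitals mark the match.
ASN1 promoter: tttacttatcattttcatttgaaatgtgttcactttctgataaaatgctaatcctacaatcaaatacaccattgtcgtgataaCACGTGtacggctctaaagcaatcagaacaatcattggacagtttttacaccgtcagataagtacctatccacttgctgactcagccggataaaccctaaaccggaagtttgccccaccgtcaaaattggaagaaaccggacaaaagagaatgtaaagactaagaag
TT4 promoter: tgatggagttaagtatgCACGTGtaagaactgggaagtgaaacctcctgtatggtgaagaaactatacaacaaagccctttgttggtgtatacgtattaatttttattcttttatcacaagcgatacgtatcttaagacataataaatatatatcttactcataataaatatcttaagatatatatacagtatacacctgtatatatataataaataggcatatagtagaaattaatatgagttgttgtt
JAZ7 promoter: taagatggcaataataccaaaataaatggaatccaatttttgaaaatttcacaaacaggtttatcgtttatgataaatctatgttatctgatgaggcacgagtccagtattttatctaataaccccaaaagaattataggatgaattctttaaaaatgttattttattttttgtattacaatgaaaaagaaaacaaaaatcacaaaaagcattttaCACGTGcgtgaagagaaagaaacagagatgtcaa
The match starts 167 bases before ASN1, 233 bases before TT4 and 34 bases before JAZ7. The G-box, which reads the same on both strands, was in 6.5% of all promoters. It was in 3 of 17 promoters of the dark and carbon starvation list, 6 of 21 of the anthocyanin list (28.6%) and 5 of 25 of the jasmonate list (20.0%). Lists with 1 called member also held it, with 8 of 22 iron promoters (36.4%) and 4 of 15 heat shock promoters (26.7%). The salicylate and immunity list, with no called member, had it in 2 of 26 (7.7%). For the sulfate list, GAGAC, the core of the sulfur-responsive element, was searched on both strands and was in 3 of 18 promoters (16.7%), against 25.8% of all.

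Starch is built by day and broken down at night, and BAM3 and DPE2 act in its breakdown. Of 30 tested genes of starch and sugar metabolism 10 were higher and 1 was lower, against 8.34% and 6.51% of all genes. The median was 0.28. BAM3 (CT-BMY), a chloroplast beta-amylase, had 638 and 547 CPM in EXS34-file leaves and 211 and 251 CPM in EXS32-file leaves (1.36 ± 0.12, adjusted p 0.000178). DPE2, which uses the maltose released, had 328 and 321 CPM in EXS34-file leaves and 191 and 208 CPM in EXS32-file leaves (0.70 ± 0.09, adjusted p 0.000991). APL3, a subunit of the first committed enzyme of starch synthesis, had 34.6 and 39.0 CPM in EXS34-file leaves and 15.9 and 15.1 CPM in EXS32-file leaves (1.25 ± 0.16, adjusted p 0.00113). The 1 lower gene was STP1, a hexose importer that sugar represses, with 333 and 301 CPM in EXS34-file leaves and 423 and 483 CPM in EXS32-file leaves (-0.52 ± 0.10, adjusted p 0.0104). The number higher was 5 and 10 without EXS34-file replicates 1 and 2, and 5 and 6 without EXS32-file replicates 1 and 2, and 5 with all 16 libraries in 1 fit. The STP1 call ended without EXS34-file replicate 2 (adjusted p 0.0656) or EXS32-file replicate 2 (0.0899).

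Of 22 tested photosynthesis genes 13 were lower in EXS34-file leaves and 4 were higher, against 6.51% and 8.34% of all genes. The median was -0.29. The lower ones were subunits of the photosystems and their antennae. LHCB2.1, an antenna protein of photosystem II, had 453 and 439 CPM in EXS34-file leaves and 976 and 951 CPM in EXS32-file leaves (-1.11 ± 0.13, adjusted p 0.000865). LHCB3, another, had 3325 and 3041 CPM in EXS34-file leaves and 4938 and 5401 CPM in EXS32-file leaves (-0.70 ± 0.08, adjusted p 0.000534). LHCA1, an antenna protein of photosystem I, had 2777 and 2918 CPM in EXS34-file leaves and 4649 and 4831 CPM in EXS32-file leaves (-0.74 ± 0.07, adjusted p 0.000212). LHCA4, its partner, had 3878 and 3716 CPM in EXS34-file leaves and 6196 and 6416 CPM in EXS32-file leaves (-0.73 ± 0.07, adjusted p 0.000211). In these 4 genes the EXS32-file leaves were the highest of the 4 groups.

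The 4 higher photosynthesis genes were RBCS1B, RBCS2B and RBCS3B, which encode small subunits of Rubisco, and RCA, which encodes Rubisco activase. RBCS1B had 1344 and 1499 CPM in EXS34-file leaves and 678 and 703 CPM in EXS32-file leaves (1.04 ± 0.13, adjusted p 0.00113). RBCS2B had 2979.6 and 2971 CPM in EXS34-file leaves and 1527 and 1739 CPM in EXS32-file leaves (0.87 ± 0.08, adjusted p 0.000207). RBCS1A, at a far higher level, had 19473 and 17429.9 CPM in EXS34-file leaves and 16770.0 and 18202 CPM in EXS32-file leaves, which overlap (0.08 ± 0.08, adjusted p 0.548). RBCS3B rose by less (0.35 ± 0.09, adjusted p 0.0334), as did RCA (0.25 ± 0.07, adjusted p 0.0439). The RBCS3B call ended without EXS34-file replicate 1 (adjusted p 0.158), EXS32-file replicate 1 (0.232) or EXS32-file replicate 2 (0.0552), and with all 16 libraries in 1 fit (0.488). The RCA call ended without EXS34-file replicate 1 (adjusted p 0.144), EXS34-file replicate 2 (0.0779), EXS32-file replicate 1 (0.280) or EXS32-file replicate 2 (0.0546), and with the DESeq2 Wald test (0.0974), the 4 libraries alone (0.0710), all 16 libraries in 1 fit (0.626), a fit without robust (0.0521) or a block for the file numbers (0.1502). The LHCB3 call ended with all 16 libraries in 1 fit (adjusted p 0.0814). The LHCA4 call ended with all 16 libraries in 1 fit (adjusted p 0.0797). The RBCS and LHCB1 genes have near-identical copies, so how reads divide among them is uncertain. The number of lower members was 10 and 11 without EXS34-file replicates 1 and 2, and 7 and 8 without EXS32-file replicates 1 and 2, and 4 with all 16 libraries in 1 fit. The number of higher members was 2 and 3 without EXS34-file replicates 1 and 2, and 2 and 2 without EXS32-file replicates 1 and 2, and 2 with all 16 libraries in 1 fit.

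Of 15 tested nitrogen genes 6 were higher and none lower, against 8.34% and 6.51% of all genes, with a median of 0.34. LBD37, a repressor of nitrate-responsive genes, had 108 and 85.0 CPM in EXS34-file leaves and 49.3 and 45 CPM in EXS32-file leaves (1.03 ± 0.13, adjusted p 0.000949). NIR1, nitrite reductase, had 321 and 314 CPM in EXS34-file leaves and 186 and 186 CPM in EXS32-file leaves (0.77 ± 0.11, adjusted p 0.00210). GLU1, the ferredoxin-dependent glutamate synthase of leaves, had 1306 and 1147 CPM in EXS34-file leaves and 821 and 851 CPM in EXS32-file leaves (0.55 ± 0.08, adjusted p 0.00236). NIA2, the main nitrate reductase, had 703 and 576 CPM in EXS34-file leaves and 717 and 626 CPM in EXS32-file leaves, which overlap (-0.07 ± 0.16, adjusted p 0.807). Leaving out any 1 library gave 4 to 5 members higher, 4 of them without EXS32-file replicate 1.

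Of 19 tested clock genes 2 were higher and 5 lower, against 8.34% and 6.51% of all genes. LNK1 (AT5G64170), a co-activator of clock genes, had 23.7 and 20.6 CPM in EXS34-file leaves and 6.12 and 6.20 CPM in EXS32-file leaves (1.84 ± 0.20, adjusted p 0.000509). Its relative LNK2 (AT3G54500) had 11.5 and 15.5 CPM in EXS34-file leaves and 26.3 and 29.8 CPM in EXS32-file leaves (-1.05 ± 0.17, adjusted p 0.00418), the opposite direction. FKF1, a blue-light receptor, had 40.1 and 31.9 CPM in EXS34-file leaves and 66.2 and 64.99 CPM in EXS32-file leaves (-0.87 ± 0.13, adjusted p 0.00254). The core gene TOC1 had 216 and 187 CPM in EXS34-file leaves and 183 and 197 CPM in EXS32-file leaves, which overlap (0.09 ± 0.10, adjusted p 0.599). GI, which works with FKF1, had 101 and 97.8 CPM in EXS34-file leaves and 109.5 and 103 CPM in EXS32-file leaves (-0.10 ± 0.08, adjusted p 0.441). The hour of harvest was not stated in the labels, and its part in these differences was not tested. The number of lower members was 5 and 5 without EXS34-file replicates 1 and 2, and 2 and 5 without EXS32-file replicates 1 and 2, and that of higher members 1 and 1 without EXS34-file replicates 1 and 2, and 1 and 2 without EXS32-file replicates 1 and 2. They were 3 with all 16 libraries in 1 fit for lower members, and 1 with the DESeq2 Wald test and 1 with all 16 libraries in 1 fit for higher members.

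Among hormone lists, 4 of 25 tested jasmonate genes were higher, against 8.34% of all genes, and none lower, with a median of 0.40. JAZ7, a repressor of jasmonate signalling, had 21.0 and 14.6 CPM in EXS34-file leaves and 0.875 and 0.641 CPM in EXS32-file leaves (4.51 ± 0.30, adjusted p 4.84e-05). JAZ6, another repressor, had 118 and 122 CPM in EXS34-file leaves and 52.5 and 46.0 CPM in EXS32-file leaves (1.28 ± 0.15, adjusted p 0.000989). The storage protein gene VSP2, a classic output of jasmonate, had 112 and 85.3 CPM in EXS34-file leaves and 95.3 and 86.3 CPM in EXS32-file leaves, which overlap (0.12 ± 0.36, adjusted p 0.860). The 2 other called members were JAZ9 (TIFY7) (1.07 ± 0.21, adjusted p 0.0158) and LOX4, a lipoxygenase of jasmonate synthesis (1.68 ± 0.37, adjusted p 0.0313). The JAZ6 call ended with all 16 libraries in 1 fit (adjusted p 0.118). The JAZ9 call ended without EXS34-file replicate 1 (adjusted p 0.0677), EXS32-file replicate 1 (0.0959) or EXS32-file replicate 2 (0.0905), and with all 16 libraries in 1 fit (0.293). The LOX4 call ended without EXS34-file replicate 1 (adjusted p 0.107), EXS32-file replicate 1 (0.0864) or EXS32-file replicate 2 (0.142), and with no filter on low counts (0.0661) or all 16 libraries in 1 fit (0.282). The number higher was 2 and 5 without EXS34-file replicates 1 and 2, and 2 and 2 without EXS32-file replicates 1 and 2, and 1 with all 16 libraries in 1 fit and 12 with a block for the file numbers.

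Of 20 abscisic acid and cold genes 4 were higher, against 8.34% of all genes, and none lower. RD26, a NAC factor, had 50.9 and 27.5 CPM in EXS34-file leaves and 8.57 and 9.51 CPM in EXS32-file leaves (2.12 ± 0.35, adjusted p 0.0130). COR15A, a cold-protective protein of the chloroplast, had 463 and 425 CPM in EXS34-file leaves and 232 and 313 CPM in EXS32-file leaves (0.70 ± 0.14, adjusted p 0.0122). The number higher was 1 and 7 without EXS34-file replicates 1 and 2, and 0 and 2 without EXS32-file replicates 1 and 2, and 1 with all 16 libraries in 1 fit and 8 with a block for the file numbers. The RD26 call ended without EXS32-file replicate 1 (adjusted p 0.0916) or EXS32-file replicate 2 (0.0698), and with all 16 libraries in 1 fit (0.0717). The COR15A call ended without EXS34-file replicate 1 (adjusted p 0.0679) or EXS32-file replicate 1 (0.0719), and with all 16 libraries in 1 fit (0.165).

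Of 8 tested type-A response regulators, early targets of cytokinin that damp its signal, 2 were lower, against 6.51% of all genes, and none higher. ARR7 had 31.5 and 21.0 CPM in EXS34-file leaves and 45.2 and 50.8 CPM in EXS32-file leaves (-0.87 ± 0.23, adjusted p 0.0418). ARR15 had 5.83 and 4.83 CPM in EXS34-file leaves and 9.80 and 13.5 CPM in EXS32-file leaves (-1.12 ± 0.23, adjusted p 0.0119). The ARR7 call ended without EXS34-file replicate 2 (adjusted p 0.144), EXS32-file replicate 1 (0.128) or EXS32-file replicate 2 (0.182), and with no filter on low counts (0.0595) or a block for the file numbers (0.126). The ARR15 call ended without EXS34-file replicate 2 (adjusted p 0.0694) or EXS32-file replicate 2 (0.0972). None of 26 tested salicylate and immunity genes was called by edgeR, with 2 at an unadjusted p under 0.05. PR1, their usual marker, had 51.5 and 43.2 CPM in EXS34-file leaves and 99.5 and 96.3 CPM in EXS32-file leaves (-1.05 ± 0.39, adjusted p 0.140).

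Touch is known to raise TCH genes within minutes. Of 10 tested genes of touch and rapid wounding 3 were higher and none lower, against 8.34% and 6.51% of all genes. TCH4, a cell-wall enzyme, had 269 and 241 CPM in EXS34-file leaves and 45.4 and 50.3 CPM in EXS32-file leaves (2.41 ± 0.13, adjusted p 2.10e-05). TCH2, a calmodulin-like protein, had 46.8 and 54.2 CPM in EXS34-file leaves and 18.7 and 14.5 CPM in EXS32-file leaves (1.60 ± 0.13, adjusted p 0.000157). TCH3, another calmodulin-like protein, had 222 and 164 CPM in EXS34-file leaves and 306 and 200.1 CPM in EXS32-file leaves, which overlap (-0.39 ± 0.31, adjusted p 0.454). ERF104, an ethylene response factor, had 20.6 and 30.2 CPM in EXS34-file leaves and 17.3 and 12.1 CPM in EXS32-file leaves (0.78 ± 0.22, adjusted p 0.0470). The ERF104 call ended without EXS34-file replicate 2 (adjusted p 0.197), EXS32-file replicate 1 (0.0551) or EXS32-file replicate 2 (0.215), and with no filter on low counts (0.0522), limma-voom (0.0579), the 4 libraries alone (0.0908), all 16 libraries in 1 fit (0.118) or a block for the title numbers (0.0582). Members called higher numbered 5 with the DESeq2 Wald test, 6 with a block for the title numbers and 7 with a block for the file numbers.

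The lists of iron (20 tested), zinc (7), heat shock (8) and senescence (9) genes had 1 called member each, all higher. Over all genes tested, 8.34% were called higher. OPT3, a phloem carrier that signals iron status, had 147 and 142 CPM in EXS34-file leaves and 99.6 and 94.4 CPM in EXS32-file leaves (0.58 ± 0.14, adjusted p 0.0242). HMA2, a zinc pump, had 21.96 and 27.8 CPM in EXS34-file leaves and 15.1 and 16.1 CPM in EXS32-file leaves (0.67 ± 0.16, adjusted p 0.0203). HSP70, a chaperone, had 5.05 and 1.88 CPM in EXS34-file leaves and 1.14 and 0.855 CPM in EXS32-file leaves (1.76 ± 0.50, adjusted p 0.0434). NYC1, which starts chlorophyll b breakdown, had 390.3 and 373 CPM in EXS34-file leaves and 273 and 308 CPM in EXS32-file leaves (0.40 ± 0.11, adjusted p 0.0347). The OPT3 call ended without EXS34-file replicate 1 (adjusted p 0.0942), EXS34-file replicate 2 (0.0817), EXS32-file replicate 1 (0.116) or EXS32-file replicate 2 (0.145), and with all 16 libraries in 1 fit (0.0649) or a block for the file numbers (0.0640). The HMA2 call ended without EXS34-file replicate 2 (adjusted p 0.115), EXS32-file replicate 1 (0.140) or EXS32-file replicate 2 (0.0891), and with a block for the file numbers (0.0770). The HSP70 call ended without EXS34-file replicate 1 (adjusted p 0.236), EXS32-file replicate 1 (0.163) or EXS32-file replicate 2 (0.203), and with limma-voom (0.122), the 4 libraries alone (0.0722), all 16 libraries in 1 fit (0.159) or a fit without robust (0.0506). The NYC1 call ended without EXS34-file replicate 1 (adjusted p 0.132), EXS34-file replicate 2 (0.0846), EXS32-file replicate 1 (0.225) or EXS32-file replicate 2 (0.0731), and with all 16 libraries in 1 fit (0.153). None of 10 tested cell division genes was called by edgeR, with 1 at an unadjusted p under 0.05.

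The summed levels of markers of other tissues overlapped between the 2 groups in every list below but that of guard cells. The 12 root markers summed to 11.5 and 6.88 CPM in EXS34-file leaves and 10.2 and 8.66 CPM in EXS32-file leaves, against 1059 to 2006 CPM in roots, and 2 of them were tested. The 12 flower and bolting markers summed to 109 and 41.5 CPM in EXS34-file leaves and 51.6 and 60.2 CPM in EXS32-file leaves. The 5 guard cell markers summed to 55.2 and 66.0 CPM in EXS34-file leaves and 69.9 and 67.2 CPM in EXS32-file leaves. The 7 xylem and secondary wall genes summed to 96.99 and 103 CPM in EXS34-file leaves and 104 and 102 CPM in EXS32-file leaves. None of the tested genes of these 4 lists was called by edgeR, with 3 of the guard cell markers and 1 of the root markers at an unadjusted p under 0.05. In such tissue samples, fewer cells of a type and less RNA per cell cannot be told apart.

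The 10 called genes with the highest estimates were LSU3, PAP1 and JAZ7, given above, and 7 others. CSLA01, a mannan synthase, had 28.3 and 13.3 CPM in EXS34-file leaves and 0.525 and 0.748 CPM in EXS32-file leaves (5.03 ± 0.63, adjusted p 0.00329). CER4, which makes the primary alcohols of surface wax, had 8.55 and 3.40 CPM in EXS34-file leaves and 0.175 and 0.534 CPM in EXS32-file leaves (4.09 ± 0.63, adjusted p 0.00371). SQP1, a squalene monooxygenase of sterol and triterpene synthesis, had 49.7 and 23.3 CPM in EXS34-file leaves and 2.01 and 2.89 CPM in EXS32-file leaves (3.91 ± 0.45, adjusted p 0.00282). The nearby locus AT5G24155 had 4.86 and 2.59 CPM in EXS34-file leaves and 0.175 and 0.428 CPM in EXS32-file leaves (3.63 ± 0.52, adjusted p 0.00209). In these 4 genes EXS34-file replicate 1 was well above replicate 2. Both lay above the EXS32-file libraries, which the rule that picked these genes required. The 3 others were AT5G37940 (4.06 ± 0.89, adjusted p 0.0221), AT1G57590 (3.59 ± 0.43, adjusted p 0.000910) and AT3G28270 (3.43 ± 0.47, adjusted p 0.00877). The CER4 call ended without EXS32-file replicate 1 (adjusted p 0.0503). The AT5G37940 call ended without EXS34-file replicate 1 (adjusted p 0.0664), EXS32-file replicate 1 (0.140) or EXS32-file replicate 2 (0.0590), and with limma-voom (0.0724) or the 4 libraries alone (0.0861). The AT3G28270 call ended with a block for the file numbers (adjusted p 0.0534).

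The 10 called genes with the lowest estimates included ASN1, BCAT2 and DIN1, given above. LAS1, a lanosterol synthase, had 0.292 and 0.715 CPM in EXS34-file leaves and 4.02 and 4.06 CPM in EXS32-file leaves (-2.96 ± 0.48, adjusted p 0.00403). MAF5, a relative of the flowering repressor FLC, had 0 and 8 reads in EXS34-file leaves and 37 and 23 reads in EXS32-file leaves (adjusted p 0.0310). PYL6, an abscisic acid receptor, had 0.875 and 0.625 CPM in EXS34-file leaves and 5.07 and 5.24 CPM in EXS32-file leaves (-2.77 ± 0.37, adjusted p 0.00156). ABCB21, an auxin transporter, had 10.1 and 19.3 CPM in EXS34-file leaves and 86.3 and 87.8 CPM in EXS32-file leaves (-2.56 ± 0.27, adjusted p 0.00167). CRF5, a cytokinin response factor, had 3.40 and 3.04 CPM in EXS34-file leaves and 16.7 and 17.5 CPM in EXS32-file leaves (-2.41 ± 0.23, adjusted p 0.000267). The 4 other leaf libraries lay at 10.7 to 17.0 CPM for ABCB21 and 1.88 to 4.22 CPM for CRF5, so the EXS32-file libraries were the ones apart. The last of the 10 were AT1G16500 (-2.70 ± 0.25, adjusted p 0.000242) and TPX2, a peroxiredoxin (-2.56 ± 0.54, adjusted p 0.0138). The MAF5 call ended without EXS34-file replicate 1 (adjusted p 0.0694), EXS32-file replicate 1 (0.163) or EXS32-file replicate 2 (0.0947), and with the 4 libraries alone (0.0513), all 16 libraries in 1 fit (0.0649) or a block for the file numbers (0.0730). The TPX2 call ended without EXS34-file replicate 2 (adjusted p 0.0860) or EXS32-file replicate 2 (0.0821), and with all 16 libraries in 1 fit (0.232).

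In roots EXS34 and EXS32 differed in 187 of 20597 genes (0.908%), 119 higher (0.578%) and 68 lower (0.330%) in EXS34. The leaf and root comparisons share no library. Of the 187 root genes 80 were also called in leaves (42.8% of the root calls and 2.9% of the leaf calls), 74 of them in the same direction. Over all genes tested in leaves, 14.8% were called. The same sign in both organs was found in 1958 of the 2602 genes called in leaves and tested in roots. Of 17 tested aliphatic glucosinolate genes 10 were higher in EXS34 roots and none lower, with a median of 1.26. FMO GS-OX3 had 7.74 and 9.72 CPM in EXS34 roots and 1.7 and 2.21 CPM in EXS32 roots (2.15 ± 0.34, adjusted p 0.0444). APR1 had 143 and 143 CPM in EXS34 roots and 30.1 and 37.5 CPM in EXS32 roots (2.08 ± 0.23, adjusted p 0.0238). GDH1 had 162 and 129 CPM in EXS34 roots and 345 and 334 CPM in EXS32 roots (-1.22 ± 0.13, adjusted p 0.0221). The anthocyanin genes had a median of 2.58 in roots, with none of 19 among the 187.

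The difference between the organs was tested directly, and 350 of 21351 genes (1.64%) had a leaf difference that departed from the root difference, 196 upward (0.918%) and 154 downward (0.721%). ARR7 had 44.4 and 45.2 CPM in EXS34 roots and 11.7 and 14.1 CPM in EXS32 roots, the opposite of leaves (leaf minus root -2.67 ± 0.30, adjusted p 0.00167). LHCB2.1 had 2.58 and 6.09 CPM in EXS34 roots and 0.827 and 1.11 CPM in EXS32 roots (leaf minus root -3.28 ± 0.56, adjusted p 0.0171), and 7 of the 22 photosynthesis genes departed downward. The summed level of that list was 140.5 to 532 CPM over the roots, against 96408 and 90786 CPM in EXS34-file leaves and 110463 and 112652 CPM in EXS32-file leaves. ASN1 had 156 and 120.2 CPM in EXS34 roots and 348 and 255 CPM in EXS32 roots, a smaller difference than in leaves (leaf minus root -2.92 ± 0.46, adjusted p 0.0117). No aliphatic glucosinolate, sulfate or anthocyanin gene was among the 350. With only 1.64% of all genes among them, this does not show that these genes differed alike in leaves and roots. The count was 117 and 175 without EXS34-file leaf replicates 1 and 2, 94 and 160 without EXS32-file leaf replicates 1 and 2, 204 without EXS34 root replicate 2, and 110 and 113 without EXS32 root replicates 1 and 2. A block for the file numbers, chosen after the data were seen, left 43 genes, while limma-voom gave 227 and the DESeq2 Wald test 906.

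**Figure D4:**
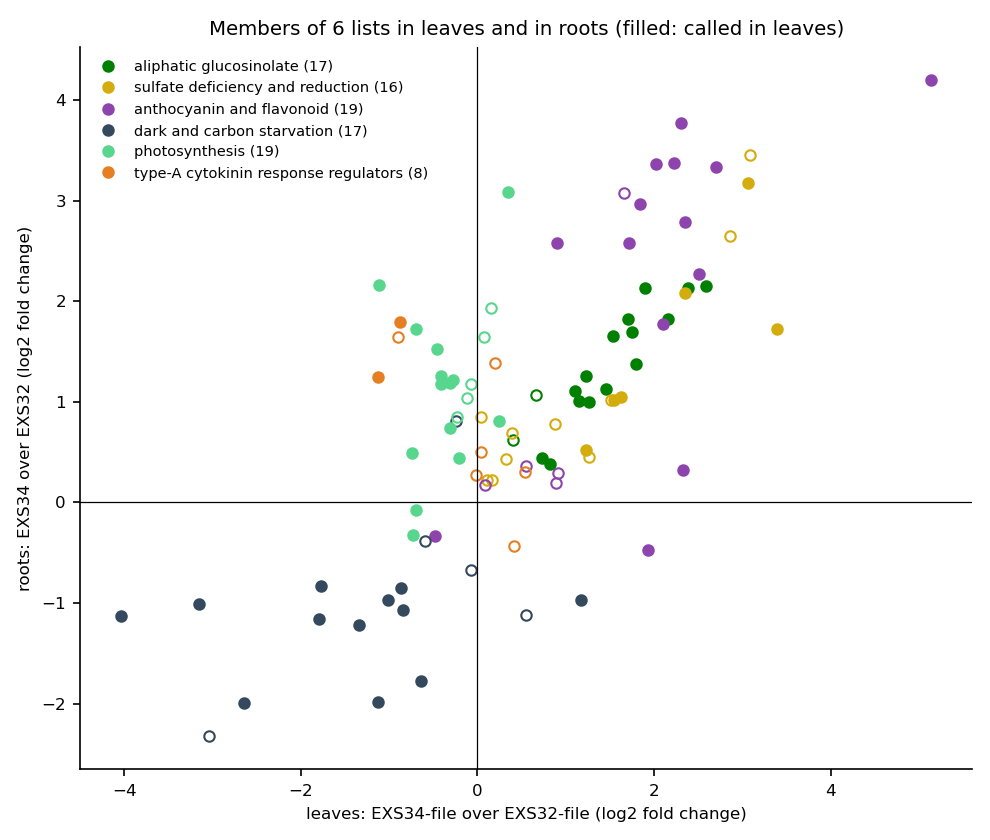
Log2 fold change in leaves (EXS34-file over EXS32-file, horizontal) against that in roots (EXS34 over EXS32, vertical) for the members of 6 lists tested in both organs, with filled points called in leaves and the number of points in the legend. Aliphatic glucosinolate and sulfate genes lie upper right, most dark and carbon starvation genes lower left, and most photosynthesis genes upper left.

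With the names of the sample titles the root partner is EXS32 against Compl, which differed in 2548 of 20597 genes (12.4%). Of these, 520 were also called in leaves (20.4% of the root calls and 18.9% of the leaf calls), with 107 in the same direction. Over all genes tested in leaves, 14.8% were called. The same sign in both organs was found in 905 of the 2602 genes called in leaves and tested in roots. In that root comparison 10 of 17 aliphatic glucosinolate genes were lower and none higher, and 11 of 17 dark and carbon starvation genes were higher and none lower. The leaf comparison had both lists in the opposite direction. The leaf difference departed from this root difference in 3480 genes (16.3%). That count was 2140 and 2072 without EXS32-file leaf replicates 1 and 2, and 2288 and 1934 without EXS32 root replicates 1 and 2.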

How the data were processed

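Per the labels' protocols, total RNA went into the Illumina TruSeq Stranded mRNA kit. The authors deposited raw counts of reads for 32678 loci. The submitters' processing notes name TAIR10, cutadapt (1.2.1), HTSeq (0.5.4p3), TopHat2 (2.0.9), edgeR, limma and R (3.1.1) without their settings, so the strand setting is unknown and overlapping or antisense genes are uncertain. Lines that name no gene (7.26 to 7.77% of leaf reads) were left out. Between the 2 libraries of a group, counts differed by a chi-square per degree of freedom of 8.7 (EXS34-file) and 4.9 (EXS32-file), beyond sampling noise, and each library was 1 replicate.

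The 8 leaf libraries (9465995 to 15530134 reads on genes) were fitted together with edgeR 4.0.16 under R 4.3.3. Genes were kept by filterByExpr at a minimum count of 10 and total of 15, libraries were scaled by TMM, and the robust quasi-likelihood test was adjusted by Benjamini-Hochberg over all 18548 genes at 0.05. Standard errors are the log2 fold change over the root of F. CPM are counts per 1000000 of the TMM-scaled library size. Organ differences are interactions in a fit of all 16 libraries. On counts simulated from the leaf libraries with 200 genes changed, the share of false calls lay above 0.05 in all 6 runs.

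The libraries, the 26 gene lists (419 entries, 19 kept by locus) and the naming rule were chosen with earlier results of these data known. The rule took PHO1, the 10 highest and 10 lowest estimates among called genes that reached 2 CPM in a group without overlap, and from each list the 6 members of lowest adjusted p. Named outside it, after their values were seen, were BCAT4, IPMI1, CYP79F2, SOT17, MYB28, MYB29, MYB34, MYB51, SDI1, DFR, MYB111, TT8, TTG1, C4H, GDH2, DRM1, RBCS1A, RBCS1B, RBCS3B, RCA, NIA2, TOC1, GI, VSP2, TCH3, SPX1, PHO2 and SEC3B. Promoter and miRNA sequences are from RefSeq, TAIR10.1. The alternatives were DESeq2 1.42.0 (size factors, Wald test), library size alone, no filter, limma-voom 3.58.1, only 4 or all 16 libraries, a replicate block (numbers of the titles, and, added after seeing the data, of the file names), a fit without robust and leaving out each library. Figures were drawn with matplotlib 3.10.9.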

Additional observations from a re-analysis of the deposited data

Results flagged for a closer look

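The leaf difference between EXS34-file and EXS32-file libraries departed from the root difference between EXS34 and EXS32, by the interaction test, in 350 genes. Of the named genes called in leaves, 18 were among them. The values are leaf minus root differences of log2 fold changes, and no cause was tested.

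Upward departures were found in CER4 (3.82), AT1G57590 (3.35), LNK1 at AT5G64170 (2.16), TPS8 (2.14), AT4G22990 (1.74), TCH4 (1.65), GLU1 (1.44), the nitrate transporter NRT1.5 (1.21) and LBD37 (1.16). TPS8 had 252 and 146 CPM in EXS34 roots and 359 and 419.9 CPM in EXS32 roots, while it was higher in EXS34-file leaves.

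Downward departures were found in AT1G16500 (-3.80), LHCB2.1 (-3.28), ASN1 (-2.92), CRF5 (-2.87), ARR7 (-2.67), LHCB3 (-2.42), ARR15 (-2.38), ABCB21 (-2.09) and CCR1 (-1.001), an RNA-binding protein under clock control. CRF5 had 10.2 and 8.67 CPM in EXS34 roots and 6.66 and 7.14 CPM in EXS32 roots, while it was lower in EXS34-file leaves. The CCR1 call ended without EXS32-file replicate 1 (adjusted p 0.0627). The NRT1.5 call ended without EXS34-file replicate 1 (adjusted p 0.0940) or EXS32-file replicate 1 (0.153), and with the DESeq2 Wald test (0.0560).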

How the results depend on the processing

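Other scalings, no filter, DESeq2, limma-voom, only 4 or all 16 libraries and a fit without robust gave 1939 to 2810 called genes in place of 2754. Leaving out 1 of the 4 libraries gave 986 to 1794 genes, 75 to 115 list members in place of 118, and PHO1 estimates of -0.47 to 0.072 (0.072 without EXS32-file replicate 2). Of 105 named called genes none reversed in these settings. Both other scalings kept all 105 calls, 25 were lost with all 16 libraries in 1 fit, 12 under a block by file numbers, and 15 to 34 without 1 library. Of named genes that were not called, SPX1 turned to 0.0013 under the replicate block by title numbers, to 0.16 under that by file numbers, and ranged from -0.55 to 0.37 without 1 library (0.15 without EXS32-file replicate 1, 0.37 without EXS34-file replicate 1). TOC1 ranged from -0.0062 (without EXS34-file replicate 1) to 0.18. The 350 organ departures became 906 with DESeq2, 227 with limma-voom and 94 to 388 without 1 library, and the 3480 became 1934 to 3617. The causes were not tested.

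The replicate number of the titles as a block gave 3494 called genes. Deviations of same-numbered libraries correlated at 0.085 between the 2 groups compared and at 0.038 to 0.33 over the 6 pairs of leaf groups, 4 of them over 0.1. Not every pair was over 0.1, and the labels do not tie the numbers to shared plants or days, so the numbers were not taken as pairs. By the file names the 2 groups share only number 2, with a correlation of -0.085. With 2 libraries a group this is the title value with its sign turned, so it is not a second check. A block by file numbers, added after seeing the data, gave 2317 called genes. Organ departures were 478 and 3461 under the block by title numbers, and 43 and 2695 under that by file numbers. At 9465995 to 11501541 reads a library, genes of a few CPM carry wide counting error.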
